A study of Mus musculus with 4 samples.

Results

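The genes described here are 34 interferon-stimulated genes, taken by symbol from the read count table of mouse liver RNA-seq, which lists 35275 genes. They were picked by name as known responders to type I and gamma interferons, with earlier results of these data known. All 34 were found, and 31 of them reached a mean of at least 1 CPM (counts scaled to library size) over the 4 libraries, the filter that left 11640 genes for every ratio and test. Oas1a, Mx1 and Ifi44 lay under it and are given by their counts.

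The study asked how exercise changes AApoAII amyloidosis, in which apolipoprotein A-II deposits as fibrils in liver and other organs. Female mice carried the Apoa2c allele, whose product forms fibrils readily, as congenics (the labels list AKR/J as strain and the study's methods R1.P1-Apoa2c, and which applies could not be settled here). The 4 groups, sampled at 26 weeks of age after a training period of 16 weeks, were vehicle sedentary (VS), vehicle with high-intensity interval training on a treadmill (IT, group VI), AApoAII fibril injection with no training (FS) and fibril injection with IT (FI). The fibrils went into a tail vein, and the congenic allele was common to all groups, so no group stands for a liver without the amyloidogenic protein. Liver tissue of 4 mice was pooled per group before sequencing. Each group is therefore 1 library, the spread between mice is not known, and a difference between any pair of groups has no replicate check.

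Interferons are cytokines released on infection or tissue damage. Type I interferons bind the IFNAR receptor and send a complex that holds STAT2 and IRF9 to a DNA motif called the interferon-stimulated response element, whereas gamma interferon, from T and NK cells, acts through another motif, the gamma-activated site. The genes switched on that way include RNA sensors, antiviral effectors, GTPases that attack vacuoles of intracellular microbes, and the immunoproteasome, which prepares peptides for display on MHC class I. In liver, hepatocytes, Kupffer cells and sinusoidal endothelium all respond, with IRF7 raising and USP18 limiting the response.

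Each motif occurred in some promoters of the members. From promoters with a match, 8 windows are printed below to show how the cores are arranged, with members of several roles. RefSeq promoter sequence (GRCm38.p6, 250 bases before the start searched on both strands) was at hand for 27 of the 34 members. It was not at hand for Dhx58, Ifi27, Iigp1, Mx1, Mx2, Parp14 and Usp18. The core of the response element, GAAA followed after any 2 bases by GAAA again, stood in 13 of the 27 (48.1%) and in 3.46% of the promoters of 27025 genes. The core of the gamma-activated site, TTCNNNGAA (N for any base), which reads alike on both strands, stood in 8 of the 27 (29.6%) and in 8.13% of all promoters. Both stood together in Bst2, Gbp7, Igtp, Irgm2 and Oas1a, 5 of 27 (18.5%), against 0.459% of all promoters. Sequences run in the direction of transcription, and capitals mark every match of either core, overlapping matches included.

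Isg15, chr4:156200850-156200921, - strand: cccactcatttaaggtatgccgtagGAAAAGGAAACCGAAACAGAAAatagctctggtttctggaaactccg
Ifit1, chr19:34640760-34640838, + strand: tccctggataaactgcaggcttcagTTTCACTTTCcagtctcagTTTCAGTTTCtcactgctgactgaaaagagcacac
Ifit3, chr19:34583348-34583441, + strand: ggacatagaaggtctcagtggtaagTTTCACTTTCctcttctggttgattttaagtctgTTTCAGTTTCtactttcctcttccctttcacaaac
Bst2, chr8:71537562-71537633, - strand: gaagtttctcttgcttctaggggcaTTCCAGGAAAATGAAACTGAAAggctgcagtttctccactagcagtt
Gbp7, chr3:142530205-142530317, + strand: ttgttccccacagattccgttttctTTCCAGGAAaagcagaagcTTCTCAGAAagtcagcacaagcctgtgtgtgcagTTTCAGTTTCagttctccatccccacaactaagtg
Igtp, chr11:58199486-58199555, + strand: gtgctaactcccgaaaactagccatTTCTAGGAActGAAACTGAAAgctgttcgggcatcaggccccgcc
Irgm2, chr11:58214877-58214947, + strand: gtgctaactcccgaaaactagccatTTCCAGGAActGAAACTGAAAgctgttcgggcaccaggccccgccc
Irf1, chr11:53769899-53769957, + strand: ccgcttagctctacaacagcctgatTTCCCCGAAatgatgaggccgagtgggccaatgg

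Isg15 held 3 overlapping copies of the response element core within 78 bases of its start, and Ifit1 and Ifit3 held a pair each. In Bst2 the gamma-activated site core ran into the response element cores, in Igtp and Irgm2 it stood just before one, and Irf1 held the gamma-activated site core alone. The windows of Igtp and Irgm2 were identical at 68 of 70 bases. A match to a core is a description of the letters and does not show that a factor was bound in these livers.

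The libraries held 23442935 (VS), 24524287 (VI), 28814802 (FS) and 24801185 (FI) counts, and 3 counts, taken as the floor, stood for 0.127, 0.123, 0.102 and 0.124 CPM. Hepatocyte markers were abundant in all of them, with albumin at 12.1% to 13.6% of all counts. VS stood apart from the rest in skeletal muscle genes, of which 12 of 13 listed had counts and which summed to 74.8 CPM there against 9.81 CPM in VI, 1.12 in FS and 0.951 in FI. What that means for the members was not tested. VI versus VS and FS versus VS rest on that library, while FI versus FS and FI versus VI do not use it. Muscle genes differed in FI versus VI too, where all 8 that passed the filter were beyond 2-fold lower, with a median of -4.46. Levels below are CPM after scaling by trimmed means (TMM), ratios are log2 with 0.5 counts added, and ranges in parentheses are 95% counting intervals, which hold no spread between mice and treat reads as independent molecules.

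Together the members made up nearly the same part of the liver transcriptome in 3 libraries and somewhat more in FS: 678 (VS), 678 (VI), 740 (FS) and 677 (FI) CPM. Bst2 and Iigp1 gave 44.0% to 48.8% of those counts. Without these 2 genes the sums were 347 (VS), 356 (VI), 396 (FS) and 379 (FI) CPM, higher in both fibril libraries than in both vehicle ones. That order did not hold with them in the sum. Both were lower in FI than in VI, with log2 ratios of -0.12 for Bst2 and -0.10 for Iigp1. Per length, in FPKM, the levels ran in VS from 228 for Bst2, which encodes the virion-tethering protein tetherin, through 50.9 for the GTPase Iigp1, 34.3 for Ifi27 and 33.96 for the immunoproteasome subunit Psmb10, down to 0.0756 for Mx1 and 0.0525 for Ifi44. Classical type I genes were low by comparison: Ifit1 stood at 0.723 FPKM in VS, Rsad2 at 0.438 and Oasl2 at 0.342.

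**Figure D1:**
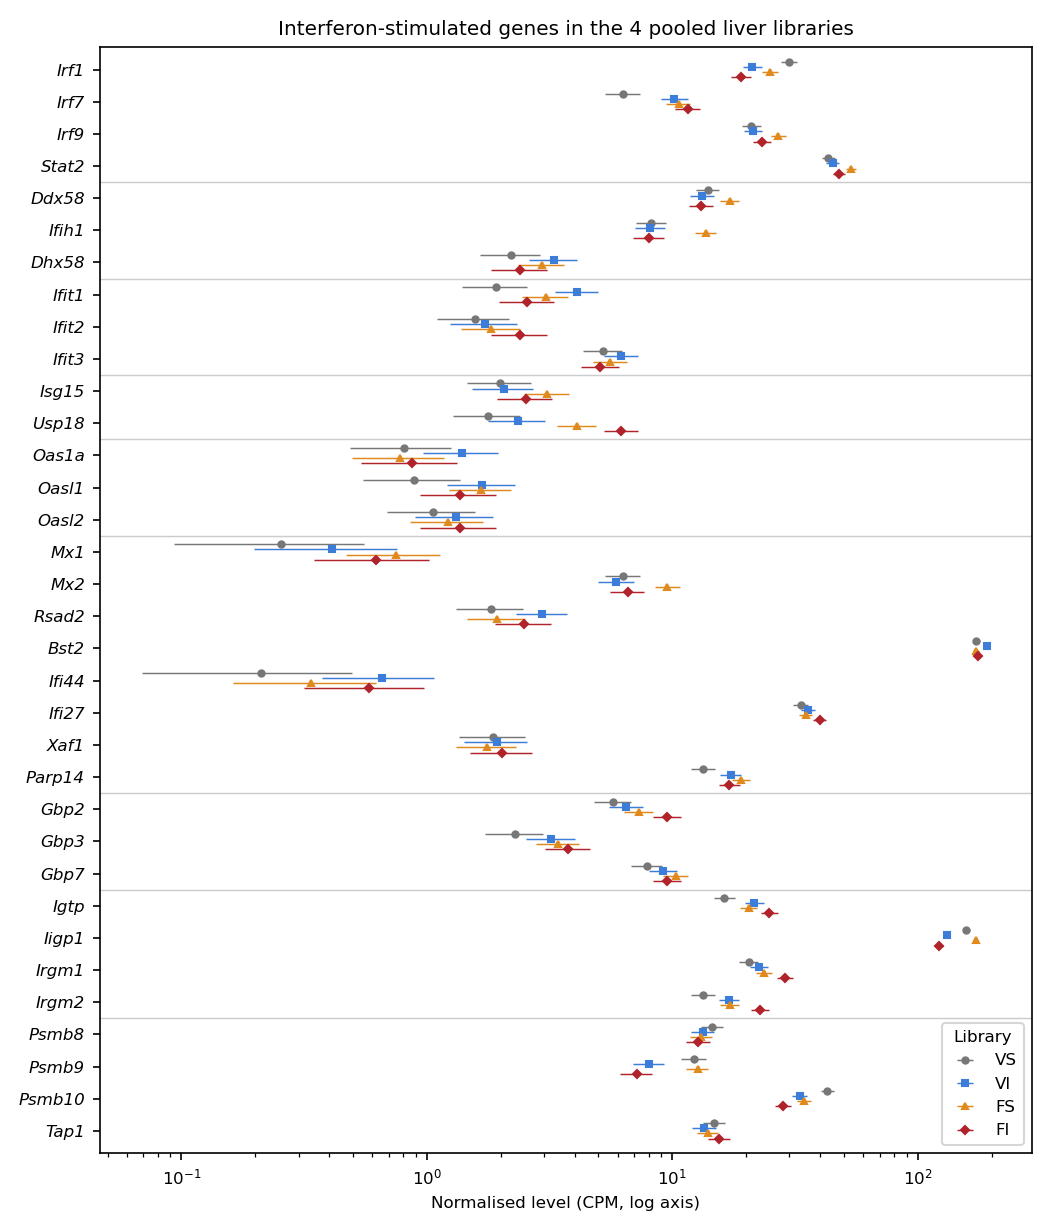
Level of each of the 34 members in the 4 pooled liver libraries (CPM on a log axis, grouped by role), with bars for 95% counting intervals. Grey circles are VS, blue squares VI, orange triangles FS and red diamonds FI; Usp18 separates fibril from vehicle libraries, Psmb9 separates trained from sedentary libraries, and most other members sit within a narrow range.

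Few members differed by 2-fold. In VI versus VS, 1 of the 31 (Ifit1, higher in VI) was beyond 2-fold in either direction, where 2.34% of all genes tested were. In FI versus FS it was 0 of 31 against 3.23% of all genes. In FS versus VS it was 1 of 31 (Usp18, higher) against 4.76%, and in FI versus VI 1 of 31 (Usp18, higher) against 3.45%. In an additive model over the 4 libraries, with fibril and training as terms and 1 residual degree of freedom (quasi-likelihood test in edgeR, Benjamini-Hochberg adjusted), fibril injection called 5.07% of all genes and 1 of the 31 members, Usp18, which was higher. Training called 1.55% of all genes and 0 of the 31. At an unadjusted p under 0.05 the same model had 5 members for fibril (21.2% of all genes) and 6 for training (14.8% of all genes). The small number of members called was thus near or under what all genes showed.

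Usp18 (chr6:121245906-121270916, mm10), which removes ISG15 from proteins and blocks signalling at the type I receptor, had the largest fibril coefficient of the members. It stood at 1.78 (VS), 2.34 (VI), 4.10 (FS) and 6.20 (FI) CPM, from 42, 57, 121 and 150 counts. Both fibril libraries lay above both vehicle libraries, with no overlap of their counting intervals. The log2 ratio was 1.20 (0.69 to 1.75) for FS over VS and 1.40 (0.96 to 1.87) for FI over VI. In the additive model the fibril coefficient was 1.31 ± 0.24 (SE, n = 4 libraries), with an adjusted p of 0.0208 by edgeR's quasi-likelihood test. The call was lost with DESeq2 (adjusted p = 0.0606) and in edgeR without the training term (adjusted p = 0.157), and the adjusted p under the settings tried ran from 3.41e-05 without a filter to that value. Isg15 itself, the ubiquitin-like modifier that Usp18 takes off, had 1.99 (VS), 2.05 (VI), 3.08 (FS) and 2.52 (FI) CPM. Its fibril ratios, 0.63 (0.11 to 1.17) for FS over VS and 0.29 (-0.27 to 0.87) for FI over VI, were smaller than those of Usp18, and its fibril coefficient of 0.47 ± 0.28 did not pass the test (adjusted p = 0.371, edgeR).

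**Figure D2:**
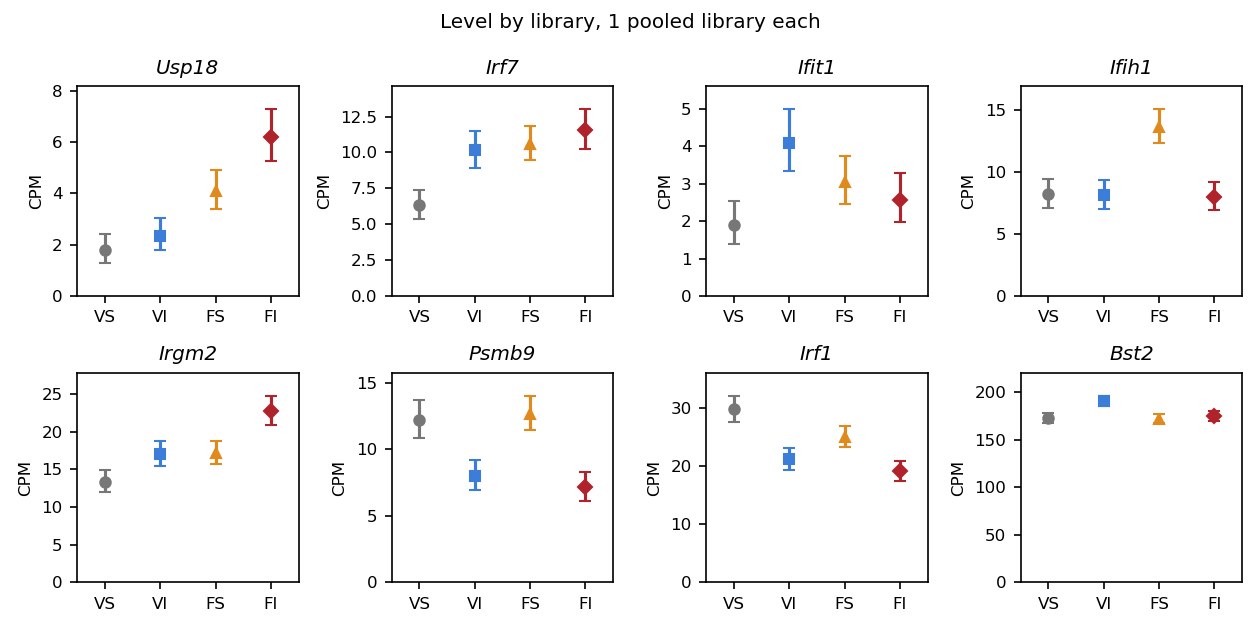
Level of 8 members by library (CPM, linear axes from 0, 1 pooled library per point, bars for 95% counting intervals). Usp18 was highest in FI at 6.20 CPM, Ifih1 was high in FS alone at 13.7 CPM, Ifit1 was highest in VI at 4.11 CPM, and Psmb9 stood at 8.0 and 7.15 CPM in the trained libraries against 12.2 and 12.7 CPM in the sedentary ones.

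Among the transcription factors, 3 of 4 were lowest in VS and Irf1 was highest there. Irf7, the amplifier of type I interferon production, had 6.31 (VS), 10.2 (VI), 10.6 (FS) and 11.6 (FI) CPM. Its VS level lay below the intervals of the other 3 libraries, which overlapped each other, and the ratios were 0.69 (0.39 to 0.99) for VI over VS and 0.75 (0.46 to 1.04) for FS over VS. Stat2 had 43.2, 45.0, 53.5 and 47.7 CPM and Irf9, its DNA-binding partner, 21.0, 21.4, 27.0 and 23.2 CPM in VS, VI, FS and FI. Both were highest in FS, by 0.31 (0.19 to 0.42) and 0.37 (0.20 to 0.53) over VS. Irf1, the factor that relays gamma interferon to the immunoproteasome and MHC genes, ran the other way, with 29.8 (VS), 21.2 (VI), 25.1 (FS) and 19.1 (FI) CPM. Both trained libraries lay below both sedentary ones, with ratios of -0.49 (-0.66 to -0.33) for VI over VS and -0.39 (-0.56 to -0.22) for FI over FS, but the training coefficient of -0.44 ± 0.13 did not pass the test (adjusted p = 0.161, edgeR). A part of Irf9 and of Irf7 overlaps a neighbouring gene, Rnf31 by 123 bases on the same strand and Phrf1 by 45 bases on the other, and reads there may have been shared.

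Of the cytosolic RNA sensors, Ifih1 and Ddx58 were high in FS alone. Ifih1 (chr2:62595798-62646255, mm10), which encodes MDA5, the sensor of long double-stranded RNA, had 8.21 (VS), 8.13 (VI), 13.7 (FS) and 8.02 (FI) CPM. The other 3 libraries differed by less than their counting intervals, so the fibril ratio was 0.73 (0.49 to 0.99) in sedentary livers and -0.02 (-0.31 to 0.27) in trained livers. Ddx58, which encodes RIG-I, the sensor of RNA ends, had 13.9, 13.2, 17.1 and 13.1 CPM in VS, VI, FS and FI, with the same order of the libraries. Dhx58, which encodes LGP2, a regulator of both sensors, was instead highest in VI, with 2.20, 3.28, 2.95 and 2.40 CPM. None of the 3 sensors passed the additive model for fibril or training, and adjusted p values (edgeR) ran from 0.347 to 0.982 for fibril.

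The IFIT proteins bind viral RNA ends and block its translation, and the 3 members lie in a cluster on chromosome 19. Ifit1 (chr19:34640871-34650009, mm10) had 1.91 (VS), 4.11 (VI), 3.05 (FS) and 2.56 (FI) CPM, that is 45, 100, 90 and 62 counts. Its VS level was the lowest and its VI level the highest, with a ratio of 1.10 (0.59 to 1.65) for VI over VS against -0.25 (-0.74 to 0.23) for FI over FS. Ifit3 followed with 5.21, 6.20, 5.59 and 5.08 CPM, and Ifit2 was highest in FI with 1.57, 1.72, 1.83 and 2.40 CPM in VS, VI, FS and FI. The counting intervals of all 4 ratios of Ifit2, and of all 4 of Ifit3, held 0.

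The OAS family makes or mimics the enzymes that start RNA decay by RNase L, and its members were low, at 19 to 49 counts per library. Oasl1 had 21 (VS), 41 (VI), 49 (FS) and 33 (FI) counts. Its ratios of 0.91 (0.13 to 1.75) for VI over VS and 0.89 (0.14 to 1.71) for FS over VS set VS below both libraries with a single intervention. Oasl2 had 25, 32, 36 and 33 counts and Oas1a, under the filter, 19, 34, 23 and 21 counts in VS, VI, FS and FI. Neither had a ratio whose interval left out 0.

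The MX proteins and the other antiviral effectors had no shared order of the libraries. Mx2, a dynamin-like GTPase, had 6.27 (VS), 5.91 (VI), 9.55 (FS) and 6.57 (FI) CPM and so stood out in FS, as Ifih1 did. Mx1, its paralogue, had 6, 10, 22 and 15 counts and Ifi44 had 5, 16, 10 and 14 counts in VS, VI, FS and FI, and both lay under the filter. Rsad2, which encodes viperin, had 1.82, 2.96, 1.93 and 2.48 CPM and was higher in both trained libraries than in both sedentary ones, with ratios of 0.69 (0.13 to 1.28) and 0.36 (-0.19 to 0.91). Parp14, an ADP-ribosyltransferase of macrophages and B cells, was lowest in VS at 13.3 CPM and had 17.3 in VI, 19.1 in FS and 17.1 in FI.

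Bst2, Ifi27 and Xaf1 had the smallest ratios of the antiviral effectors that passed the filter. Bst2 had 173 (VS), 191 (VI), 172 (FS) and 175 (FI) CPM, which at 4090 counts or more per library gave ratios no larger than 0.14 (0.08 to 0.20) for VI over VS. Ifi27, a mitochondrial protein gene that responds to type I interferon, had 33.3, 35.8, 35.0 and 39.8 CPM, and Xaf1, which promotes cell death, 1.86, 1.93, 1.76 and 2.03 CPM in VS, VI, FS and FI. The adjusted p of these 3 genes in the additive model (edgeR) was 0.618 or more for both factors.

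The guanylate-binding proteins and the immunity-related GTPases coat and break the vacuoles of intracellular microbes. Gbp2, Gbp3, Gbp7, Irgm1, Irgm2 and Igtp were lowest in VS and highest in FI or FS, which did not hold for Iigp1 or for other genes of the guanylate-binding family such as Gbp8 and Gbp11, which were highest in VS. Gbp2 had 5.72 (VS), 6.49 (VI), 7.32 (FS) and 9.51 (FI) CPM. Gbp3 had 2.29, 3.20, 3.42 and 3.76 CPM and Gbp7 7.88, 9.20, 10.3 and 9.51 CPM in the same libraries. The fibril ratios of Gbp2 were 0.35 (0.04 to 0.68) in sedentary and 0.55 (0.25 to 0.85) in trained livers, but its coefficient of 0.46 ± 0.18 did not pass the test (adjusted p = 0.186, edgeR). Gbp3 and Gbp7 lie wholly inside the annotated span of Gbp5 on the same strand, so their reads may have been divided with it.

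Irgm2, Igtp and Irgm1 had intermediate levels in VI and FS and the highest in FI. Irgm2, a regulator that holds the effector GTPases inactive on the cell's own membranes, had 13.4 (VS), 17.0 (VI), 17.2 (FS) and 22.8 (FI) CPM. Its 4 ratios were all above 0, with 0.35 (0.13 to 0.56) and 0.41 (0.23 to 0.58) for training and 0.36 (0.15 to 0.57) and 0.42 (0.23 to 0.61) for fibril. Igtp, also a regulator of that kind, had 16.3, 21.6, 20.5 and 24.8 CPM, and Irgm1 had 20.5, 22.5, 23.7 and 28.9 CPM in VS, VI, FS and FI. The additive model called none of them: for Irgm2 the adjusted p was 0.146 for fibril and 0.254 for training (edgeR). Igtp and Irgm2, whose promoter windows are nearly alike, share 7974 bases of annotated span on the same strand, so their counts may not be independent.

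Iigp1, an effector GTPase of the same family with a FPKM behind Bst2 alone in VS, did not share that order. It had 158 (VS), 131 (VI), 172 (FS) and 122 (FI) CPM. Trained libraries lay below sedentary ones in both pairs, with ratios of -0.27 (-0.34 to -0.20) for VI over VS and -0.49 (-0.56 to -0.42) for FI over FS. Counting error was small at 2960 counts or more per library, yet the training coefficient of -0.38 ± 0.12 did not pass the test (adjusted p = 0.192, edgeR).

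The immunoproteasome, which replaces the standard catalytic subunits under gamma interferon, was lower in trained livers for 2 of its 3 members. Psmb9 (chr17:34181988-34187764, mm10) had 12.2 (VS), 8.0 (VI), 12.7 (FS) and 7.15 (FI) CPM. The intervals of both trained libraries lay under those of both sedentary ones, with ratios of -0.61 (-0.88 to -0.34) for VI over VS and -0.82 (-1.09 to -0.56) for FI over FS. Its training coefficient of -0.72 ± 0.16 had the smallest adjusted p of the members, 0.0842 by edgeR's quasi-likelihood test, and did not pass. With total counts in place of TMM, or without the filter on low counts, it passed at 0.0396 and 0.00325, and over the settings tried the adjusted p ran from the latter to 0.725.

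Psmb10 had 42.8 (VS), 33.0 (VI), 34.4 (FS) and 28.2 (FI) CPM, and all 4 of its ratios were below 0, from -0.37 (-0.51 to -0.24) for VI over VS to -0.23 (-0.38 to -0.08) for FI over VI. Psmb8, the remaining catalytic subunit, had 14.5, 13.3, 13.1 and 12.7 CPM. Tap1, which pumps the peptides into the endoplasmic reticulum, had 14.8, 13.5, 13.9 and 15.5 CPM in VS, VI, FS and FI. The intervals of every ratio of Psmb8 and Tap1 held 0. Psmb9 and Tap1 are transcribed away from each other from neighbouring starts, their annotated spans overlap by 212 bases on opposite strands, and no source used here gives the strand setting of the counting.

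Fibril injection in sedentary livers went with higher levels of most members. In FS versus VS, 25 of the 31 ratios were above 0 (80.6%) against 52.2% of all genes tested, and the median was 0.31 against 0.02. The largest were Usp18 at 1.20, Oasl1 at 0.89, Irf7 at 0.75 and Ifih1 at 0.73, and the lowest were Psmb10 at -0.32 and Irf1 at -0.25. The counting interval lay above 0 for 18 members (27.7% of all genes) and below 0 for 2, Psmb10 and Irf1 (26.3% of all genes). Those ratios all divide by VS, the library in which the muscle genes were highest. In it 19 of the 31 members (61.3%) had their lowest level, where 30.0% of all genes did.

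In trained livers the count of higher members was near that of all genes. In FI versus VI, 17 of 31 ratios were above 0 (51.2% of all genes), the median was 0.05 against 0.01 for all genes, and the interval lay above 0 for 6 members (23.5% of all genes) and below 0 for 4 (24.4%). Usp18 at 1.40, Gbp2 at 0.55, Irgm2 at 0.42 and Irgm1 at 0.36 were among the higher ones, and Ifit1 at -0.68 was the lowest. Over the 2 contrasts, which share no library, 15 of 31 members were above 0 in both (35.0% of all genes) and 4, Irf1, Psmb8, Psmb10 and Bst2, were below 0 in both (31.6% of all genes).

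Macrophage markers were higher in the fibril libraries too. The 11 Kupffer cell and macrophage markers summed to 329 (VS), 396 (VI), 510 (FS) and 501 (FI) CPM. All 11 were above 0 in FS versus VS (52.2% of all genes) and in FI versus VI (51.2%). All 11 were also above 0 in VI versus VS (51.0% of all genes), so each was lowest in VS, and 5 were above 0 in FI versus FS (50.4%). In the additive model 3 passed for fibril (C1qa, C1qb and Marco), where 5.07% of all genes did. None of the 11 was at 0 in any library. Neutrophil and monocyte markers summed to 4.66 (VS), 5.67 (VI), 22.5 (FS) and 15.7 (FI) CPM, of which Prtn3 gave 0.593, 1.11, 13.1 and 10.1 CPM. The 12 markers of T and NK cells, the source of gamma interferon, summed to 1.97 to 3.02 CPM, and 0 of them passed the filter. The part of these cells in the members' levels was not tested, and in a whole-liver library more cells of a type and more RNA per cell cannot be told apart.

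**Figure D3:**
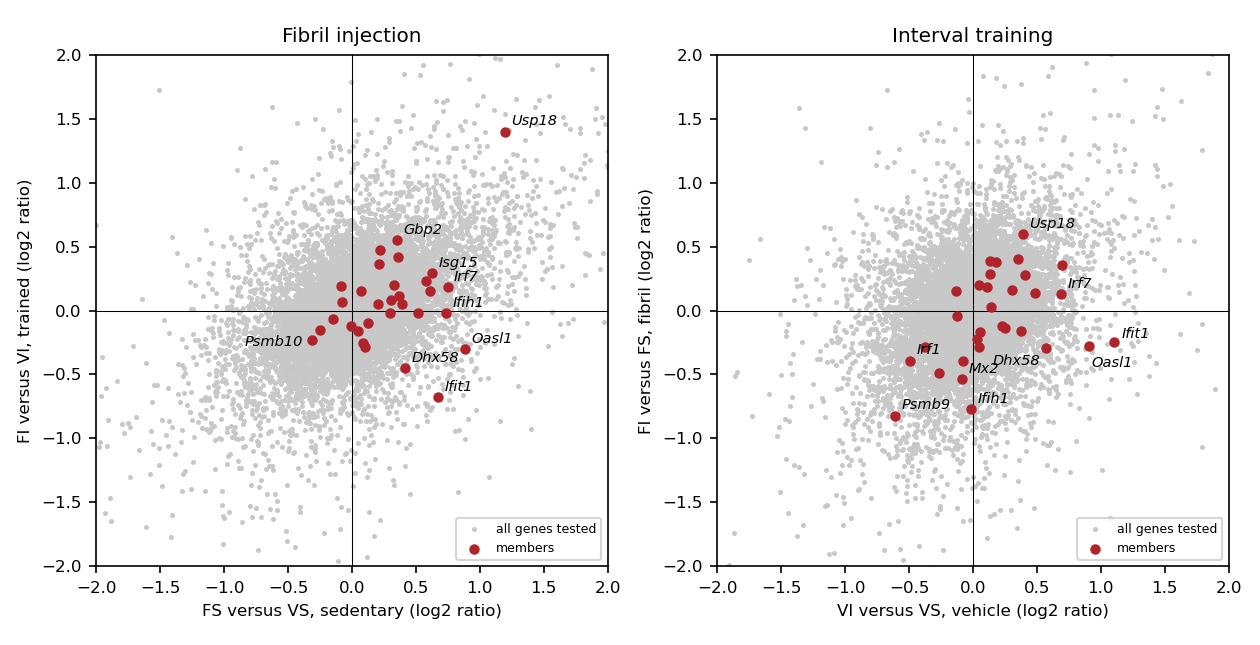
Log2 ratio of each gene in the pairs of contrasts that share no library: fibril injection in sedentary (x axis) and trained livers (y axis) on the left, IT in vehicle (x axis) and fibril livers (y axis) on the right. Red points are the 31 members and grey points all 11640 genes tested, of which a few lie outside the axes; Usp18 stands at 1.20 and 1.40 on the left, and Ifit1, Oasl1 and Dhx58 lie right of and below the centre in both panels.

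With IT, most members were higher in vehicle livers and fewer were in fibril livers. In VI versus VS, 22 of 31 members were above 0 (51.0% of all genes), with a median of 0.14 against 0.01 for all genes. The interval lay above 0 for 9 members (23.0% of all genes), led by Ifit1 at 1.10 and Oasl1 at 0.91, and below 0 for 4, Irf1, Iigp1, Psmb9 and Psmb10 (22.0% of all genes). In FI versus FS, 14 of 31 were above 0 (50.4% of all genes), with a median of -0.12 against 0.00. The interval lay above 0 for 6 members (24.8% of all genes), led by Usp18 at 0.60 and Irgm2 at 0.41, and below 0 for 9 (24.4% of all genes), led by Psmb9 at -0.82, Ifih1 at -0.77 and Mx2 at -0.54. In both contrasts 13 members were above 0 (31.1% of all genes) and 8 below 0 (29.7% of all genes). The median of the macrophage markers was 0.22 for VI over VS and -0.05 for FI over FS.

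**Figure D4:**
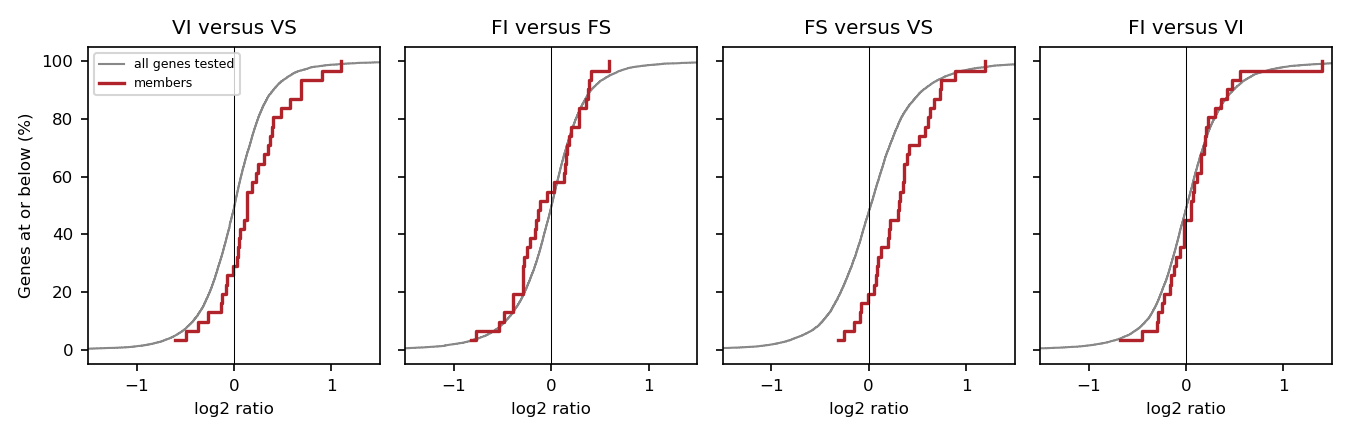
Share of genes (percent, y axis) at or below each log2 ratio (x axis) in the 4 contrasts, for the 31 members (red) and all 11640 genes tested (grey). The red curve lies to the right of the grey one over most of its range in FS versus VS (median 0.31 against 0.02) and in VI versus VS (median 0.14 against 0.01), and the curves cross or run together in the contrasts that do not use VS.

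For 12 of the 31 members the training ratio was lower in fibril than in vehicle livers by more than its counting interval, against 20.3% of all genes. These were Irf7, Irf9, Stat2, Ddx58, Ifih1, Dhx58, Ifit1, Oasl1, Mx2, Bst2, Parp14 and Iigp1. It was higher for 0 of them, against 19.8% of all genes. The median of that difference was -0.22 for the members and -0.01 for all genes, and it was largest for Ifit1 at -1.35 (-2.04 to -0.66) and Oasl1 at -1.19 (-2.17 to -0.20). Psmb9, Psmb10, Irf1, Irgm2 and Usp18 had differences between -0.21 and 0.20 whose intervals held 0. That difference uses all 4 libraries, VS included, and with 1 library per group it was not tested.

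Among members with promoter sequence at hand, those with the response element core had higher median ratios than those without it in all 4 contrasts. That is a description with no test, and without it means no exact match in the bases searched. Usp18, Mx2, Parp14, Dhx58, Iigp1 and Ifi27 passed the filter but had no sequence at hand, so neither group holds them. Their ratios for FS over VS were 1.20, 0.61, 0.52, 0.42, 0.12 and 0.07, and the medians could differ with them assigned. The 12 with the core that passed the filter had a median ratio of 0.34 for FS over VS and 0.24 for VI over VS. The 13 without it had medians of 0.20 and -0.01, and all genes tested 0.02 and 0.01. All 12 with the core were higher in VI than in VS, as were 6 of the 13 without it and 51.0% of all genes. Some of the 12 had ratios near 0 for VI over VS, such as Isg15 at 0.04 (-0.56 to 0.65) and Stat2 at 0.06 (-0.07 to 0.18). Igtp and Irgm2, both among the 12, may not have independent counts. The ratios over VS use the library in which 61.3% of the members were lowest. In FI over FS the medians were 0.08 and -0.22, and in FI over VI 0.14 and -0.02.

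None of the 16 interferon genes listed reached the floor of 3 counts in any library. Of 16 ligand genes listed, 14 had 0 counts in all 4 libraries, which with 3 counts as the limit allows up to 0.102 to 0.127 CPM in each. Ifng had 2 counts, all in FS, and Ifnk had 1 in VS and 2 in FS. The receptors were present and 0 of the 5 tested passed the additive model for fibril (5.07% of all genes) or training (1.55% of all genes). Ifnar1 had 33.0, 33.6, 38.4 and 34.7 CPM and Ifnar2 34.8, 41.4, 33.0 and 34.4 CPM in VS, VI, FS and FI. Ifngr1 had 21.9, 21.8, 24.9 and 21.1 CPM, and Ifngr2 had 21.7, 17.6, 23.5 and 15.4 CPM. Ifnlr1, the receptor chain for lambda interferon, had 6, 1, 13 and 3 counts and lay under the filter, and its partner Il10rb had 5.84, 5.38, 5.49 and 4.05 CPM.

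Of 4 kinase and transducer genes described here, 1 passed the additive model, for fibril, where 5.07% of all genes did. Stat3, which in liver mainly answers IL-6, rose with fibril injection, with 134 (VS), 135 (VI), 210 (FS) and 184 (FI) CPM (coefficient 0.55 ± 0.12, adjusted p = 0.0389, edgeR). Jak1 had 81.0, 77.1, 98.0 and 101 CPM, Jak2 15.6, 12.9, 12.1 and 14.9 CPM, and Tyk2 15.2, 16.4, 13.4 and 15.2 CPM in VS, VI, FS and FI. None of those 3 passed the test for fibril or training.

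Of 12 sensor, adaptor and kinase genes upstream of interferon, 1 passed for fibril (5.07% of all genes) and 0 for training (1.55% of all genes). Ikbke, a kinase that activates IRF3 and IRF7 and is also induced by NF-kappaB, rose with fibril injection, with 8.89 (VS), 9.40 (VI), 20.1 (FS) and 17.7 (FI) CPM (coefficient 1.04 ± 0.15, adjusted p = 0.0101, edgeR). Irf8, a myeloid factor, had 5.59, 6.36, 9.18 and 9.34 CPM and Ticam1, the adaptor of TLR3, 13.0, 12.1, 17.7 and 15.7 CPM, and neither passed (adjusted p = 0.0811 and 0.143, edgeR). Among the lower ones with training, Irf5 had 9.23, 5.95, 9.35 and 6.12 CPM, Tlr7 1.40, 1.07, 2.13 and 1.24 CPM and Tlr3 3.52, 2.05, 3.83 and 3.22 CPM in VS, VI, FS and FI. Tbk1 and Myd88 had training ratios above 0 in both pairs, and Irf3 and Zbp1 fibril ratios below 0 in both, each by 0.26 or less in size.

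Of 9 feedback inhibitors listed, 8 were tested and 0 passed for fibril (5.07% of all genes) or training (1.55% of all genes). Socs3 nevertheless lay higher in both fibril libraries than in both vehicle libraries with no overlap of the intervals. Socs3, which blocks JAK kinases at cytokine receptors, had 9.53 (VS), 12.2 (VI), 27.4 (FS) and 15.2 (FI) CPM, a fibril ratio of 1.52 (1.31 to 1.74) in sedentary and 0.33 (0.10 to 0.55) in trained livers (adjusted p = 0.113, edgeR). Cish was lowest in FI, with 4.66, 6.61, 5.76 and 3.51 CPM, and Socs1, the inhibitor most tied to gamma interferon, had 10 to 15 counts. Irf2, Irf2bp1, Ptpn2, Ptpn6, Pias1 and Trim27 had ratios between -0.40 and 0.37.

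Of 46 other genes induced by type I interferon that were tested, 1 passed lower with fibril and 1 higher with training. Of all genes, 5.07% passed for fibril and 1.55% for training in either direction. Apol9b, a mouse apolipoprotein L gene, fell with fibril injection, with 66.6 (VS), 96.4 (VI), 48.7 (FS) and 69.0 (FI) CPM (coefficient -0.47 ± 0.11, adjusted p = 0.0495, edgeR). It was also higher in VI than in VS and in FI than in FS. Apol9a, its close paralogue, rose with training, with 14.4, 25.6, 14.9 and 23.4 CPM (coefficient 0.74 ± 0.14, adjusted p = 0.0418, edgeR). Reads of near-identical paralogues may have been split between them. Fibril ratios were above 0 for 35 of the 46 in sedentary livers (median 0.24, 52.2% of all genes) and for 25 in trained livers (median 0.04, 51.2% of all genes), and 18 of the 46 had their lowest level in VS (30.0% of all genes). With training 26 of 46 were higher in vehicle livers (median 0.07, 51.0% of all genes) and 15 of 46 in fibril livers (median -0.12, 50.4% of all genes). The genes with the largest fibril ratios in both pairs were Mlkl, which executes necroptosis, with 2.41, 1.97, 4.71 and 2.89 CPM, and Ifitm3 and Ifitm2, which stop viruses at endosomes, with 178, 155, 235 and 204 CPM and 195, 208, 251 and 323 CPM in VS, VI, FS and FI. Trim25, the ligase that activates RIG-I, was lower in both fibril libraries with 95.4, 107, 80.7 and 85.9 CPM. Ube2l6, the enzyme that conjugates ISG15, was lower in both trained libraries with 55.5, 36.9, 43.8 and 34.3 CPM, as was Ly6e with 190, 149, 286 and 175 CPM. Oas2 was higher in both trained libraries with 1.31, 1.97, 1.02 and 1.41 CPM.

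Of 25 other genes induced by gamma interferon that were tested, 0 passed for fibril (5.07% of all genes) or training (1.55% of all genes) by edgeR. An unadjusted p under 0.05 was reached by 6 for fibril (21.2% of all genes) and 6 for training (14.8% of all genes). In FI versus FS, 5 of the 25 were beyond 2-fold higher (Cxcl9, Tgtp1, Tgtp2, Gbp4 and Cxcl10) and 1 lower (Gbp8), against 3.23% of all genes in either direction. Gbp4 and Cxcl10 are named after their values were seen. The median of the 25 genes was -0.10 for FS over VS, 0.25 for FI over VI, -0.02 for VI over VS and -0.10 for FI over FS. Cxcl9, the chemokine that draws T cells, had 8.38 (VS), 11 (VI), 7.82 (FS) and 19.97 (FI) CPM, with training ratios of 0.39 (0.12 to 0.66) and 1.35 (1.12 to 1.58). The GTPase genes Tgtp1 and Tgtp2 were also higher in both trained libraries, with 0.974, 1.85, 1.49 and 3.51 CPM and 0.677, 1.52, 0.610 and 1.36 CPM. Counts of Tgtp1 and Tgtp2 were low and may not be independent. Wars, the tryptophanyl-tRNA synthetase gene, was highest in FS with 12.3, 14.2, 24.9 and 18.8 CPM. Gbp8 with 2.37, 1.56, 1.69 and 0.785 CPM and Gbp11 with 7.50, 4.64, 4.71 and 3.80 CPM had all 4 ratios below 0. Psme2, a proteasome activator subunit, had 72.8, 65.5, 61.6 and 56.0 CPM, and Cd274, which encodes PD-L1, had 2.08, 1.27, 2.37 and 1.57 CPM in VS, VI, FS and FI.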

How the data were processed

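Total RNA from livers of 16 mice, 4 per pool, gave 4 Illumina libraries. The deposited table, made by the authors, holds raw read counts per gene for each library, and a companion table holds FPKM values that the authors computed from the counts, gene length and library total. All 69722 FPKM values above 0 matched that formula within 0.001. The submitters' processing notes name fastp 0.23.2, STAR 2.5, HTSeq 0.6.1 and mm10. The study tested pairs of libraries with edgeR, and those fold changes and p-values were not used. No source used here gives the strand and overlap settings of the counting, so reads of overlapping or near-identical genes may be split.

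Members and gene lists were chosen with earlier results of these data known. Columns were assigned to groups by the abbreviations in the sample titles. Counts were scaled by TMM (edgeR 4.0.16, R 4.3.3), and genes with a mean of at least 1 CPM over the 4 libraries were kept (11640 of 35275). Ratios between libraries carry 0.5 added counts and exact conditional binomial 95% intervals. The additive model used glmQLFit with robust estimation, Benjamini-Hochberg adjustment over all genes kept and a threshold of 0.05, with 1 residual degree of freedom, so any interaction enters its error. The code was tested on simulated data. Alternatives were DESeq2 1.42.0, limma-voom (limma 3.58.1), other scalings, filters, prior counts, a 1.5-fold threshold, FPKM with pseudocounts of 1 and 0.1, and a factor alone.

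All 34 members are named. Of the other pathway genes, the text names ligands with a count, receptors, transducers and feedback inhibitors, and from longer lists those called with a coefficient beyond 1 and the 3 highest and 3 lowest by the smaller of both ratios for fibril and for training. Coordinates come from the deposited table, and promoters from RefSeq on GRCm38.p6. Irgm2's RefSeq start lies inside the deposited gene span. Some results are not reported here.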

Additional observations from a re-analysis of the deposited data

Results flagged for a closer look

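Ifit1 and Iigp1 had fibril ratios of opposite sign in sedentary and trained livers, each with a counting interval that left out 0. For Ifit1, whose product binds viral RNA, the log2 ratio was 0.67 (0.15 to 1.23) for FS over VS and -0.68 (-1.16 to -0.21) for FI over VI. For Iigp1, an effector GTPase, it was 0.12 (0.06 to 0.19) for FS over VS and -0.10 (-0.17 to -0.03) for FI over VI. Of all genes, 27.7% had an interval above 0 in FS versus VS and 24.4% had one below 0 in FI versus VI. The share of all genes with both was not counted. The ratios of Iigp1 were small, and its narrow intervals rest on its high counts. With 1 pooled library per group the difference between the pairs was not tested.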

How the results depend on the processing

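With 1 pooled library per group, no setting supplies an error between mice. No paired analysis was possible, because a group of 1 library holds no replicates to pair. Leaving out any library leaves the additive model no residual degrees of freedom: the fibril ratio of Usp18 is then 1.20 or 1.40. The median ratio of the members kept its sign under 10 settings, which include the main one and the mean in place of the median. It ran from 0.26 to 0.33 for FS over VS and from 0.06 to 0.18 for VI over VS. For FI over VI it ran from 0.01 to 0.07 and for FI over FS from -0.19 to -0.06. The median of all genes for FI over FS was 0.00 in the main setting and -0.07 with total counts.

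Members beyond 2-fold numbered 2 of 34 in VI versus VS and 2 of 34 in FS versus VS without a filter on low counts, where 21.7% and 23.6% of all genes were. With a mean of at least 5 CPM they numbered 0 of 21 in VI versus VS (1.19% of all genes), FS versus VS (3.09%) and FI versus VI (1.90%). On FPKM with a pseudocount of 1 they numbered 0 of 31 in the same contrasts (0.816%, 2.01% and 1.17% of all genes), and in VI versus VS also with 0.1 (1.68%). At 1.5-fold they were 5 in VI versus VS (10.0% of all genes), 3 in FI versus FS (11.8%), 7 in FS versus VS (15.9%) and 2 in FI versus VI (12.1%). With the 5 CPM filter, chosen after seeing the data for this count, ratios were above 0 for 16 of 21 members in FS versus VS (51.1% of all genes) and for 12 in VI versus VS (52.2%), where 22 of 31 were above 0 with the 1 CPM filter. They were above 0 for 11 of 21 in FI versus VI (49.5% of all genes) and for 8 in FI versus FS (51.5%).

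For fibril the additive model called 0 members with DESeq2, 0 with the 5 CPM filter, under which Usp18 lies, and 0 with fibril as the only term. For training it called 1 member, Psmb9, with total counts and 1, Psmb9, without a filter. Over all genes it called 590 for fibril, and 377 with the 5 CPM filter, 1519 with no filter and 8 with fibril alone. For training it called 180, and 79 with the 5 CPM filter, 740 with no filter, 295 with total counts and 0 with training alone.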
